A study of Mus musculus with 12 samples.

Results

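Kinesins are motor proteins that walk along microtubules or take them apart. The family was taken by symbol, as every gene named Kif followed by a number and at most 1 letter, and 38 such genes were found among the 55414 gene IDs counted in macrophages from ischemic mouse muscle. From textbook roles, 11 were set apart as mitotic kinesins (Kif2c, Kif4, Kif11, Kif14, Kif15, Kif18a, Kif18b, Kif20a, Kif20b, Kif22 and Kif23) and 13 as transport kinesins (Kif1a, Kif1b, Kif1c, Kif3a, Kif3b, Kif3c, Kif5a, Kif5b, Kif5c, Kif13a, Kif13b, Kif16b and Kif17). The other 14 act on cilia, signalling or microtubule ends, or have roles that are less clear. Kif2a and Kif2b, relatives of the mitotic kinesin Kif2c, were placed with these others. Kifc1, Cenpe and Kifap3, whose symbols lie outside the pattern, are given only beside the members.

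The cells came from C57BL6J wild type male mice, 8 to 12 weeks old, whose femoral artery had been tied and removed in 1 hind limb. Calf muscle was taken 1, 2, 4 or 7 days post injury (dpi), and the study describes the macrophages as tissue CD45+CD11b+F4/80+CD64+ cells. There were 12 RNA-seq libraries, 3 at each of the 4 time points, with no uninjured or untreated group, and the sources do not state whether a library pools several animals. If the libraries of a time point are not separate animals, the p-values measure only the spread between these libraries.

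Mitotic kinesins are made mostly in dividing cells, where they push spindle poles apart, move chromosomes and build the midzone at which the daughter cells separate. Transport kinesins carry vesicles, endosomes, lysosomes, mitochondria and messenger RNA towards the cell edge in dividing and resting cells alike. In macrophages, the trafficking that these motors drive serves migration, secretion and the handling of engulfed material.

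The libraries held 19528316 to 33599472 counts, of which 14.8 to 55.7% fell on 1 gene ID without a symbol, a share that was lower in each 7 dpi library than in any other library. All 8 macrophage markers, Adgre1, Fcgr1 and Csf1r among them, were detected at each time point, and their sum was 5657 to 14821 CPM (counts per 1000000 counts). Lyz2 made up much of the sum, with means of 3709 CPM at 1 dpi and 8865 at 7 dpi. Between the same time points the mean of Fcgr1 went from 433 to 140 CPM and that of Itgam from 180 to 35.8. Levels are given here as CPM after scaling by the trimmed mean of M values (TMM), and differences as log2 fold changes (log2FC) with the standard error (SE) of the edgeR quasi-likelihood fit over all 14310 genes that passed the filter on low counts. A gene was called when its Benjamini-Hochberg adjusted p (FDR) was under 0.05 and its absolute log2FC above 1. By this rule 4 of the 8 macrophage markers were higher and 2 lower at 7 dpi than at 1 dpi. Of all genes tested, 19.7% were called higher and 14.0% lower between these time points. In bulk RNA, fewer cells of a type and less RNA per cell cannot be told apart.

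Of the 38 members, 30 passed the filter: all 11 mitotic kinesins, 12 of 13 transport kinesins (Kif17 did not) and 7 of the 14 others. Kif2b, Kif6 and Kif12 had 0 counts in all 12 libraries. Kif7, Kif17, Kif21a, Kif27 and Kif28 had 67, 24, 49, 2 and 3 counts in total and were not tested in the fit of all libraries. In some fits with 1 library left out Kif7 was tested and called higher from 1 to 7 dpi. These were without 1 dpi library 2, 2 dpi library 2 or 3, 4 dpi library 3, or 7 dpi library 1. The log2FC was 3.63 to 6.65 and the FDR 0.0374 to 0.0485. Kif7 had 2 counts over the 1 dpi libraries and 47 over those of 7 dpi.

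Promoter sequences are shown because the mitotic kinesins shared a short motif upstream and around their starts that the rule for members did not use. RefSeq promoters on GRCm38.p6, each of 250 bases before and 50 after a start, were found for 10 of 11 mitotic and 10 of 13 transport kinesins (12 promoters, since Kif1a and Kif1b have 2 each). The motif TTTGAA, the core of the cell cycle genes homology region, was searched on both strands, as was CCAAT, and the 2 do not overlap each other in the lines shown. TTTGAA stood in 9 of 10 mitotic promoters, in 1 of 12 transport promoters and in 17.9% of all 32851 promoters. CCAAT stood in 6 of 10 mitotic promoters, in 4 of 12 transport promoters (3 of 10 genes) and in 37.4% of all. The 2 promoters of Kif1b overlap, so its CCAAT boxes were counted in both. GCGGGAA, an E2F core that was likewise read on both strands, was in none of the mitotic or transport promoters and in 4.60% of all.

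In the 85 bases from -60 to 25 around the start, 7 of 10 mitotic promoters held TTTGAA. So did 1 of 12 transport promoters (Kif1a, at -44 to -39) and 4.43% of all promoters. The 7 mitotic ones are printed first, 5′ to 3′ on the gene's strand, with TTTGAA (or TTCAAA on the other strand) and CCAAT (or ATTGG) in capitals. Kif18a, the 1 mitotic kinesin whose whole promoter lacked TTTGAA, and the transport kinesins Kif3a and Kif13a, whose promoters lacked it too, follow for comparison. The lines lie at chr19:37376322-37376406 (+) for Kif11, chr9:122951021-122951105 (+) for Kif15, chr11:102925100-102925184 (-) for Kif18b, chr19:34922298-34922382 (+) for Kif20b, chr7:127042396-127042480 (-) for Kif22, chr9:61946775-61946859 (-) for Kif23 and chrX:100626005-100626089 (+) for Kif4. Those of Kif18a, Kif3a and Kif13a lie at chr2:109280678-109280762 (+), chr11:53567309-53567393 (+) and chr13:46929694-46929778 (-).
Kif11: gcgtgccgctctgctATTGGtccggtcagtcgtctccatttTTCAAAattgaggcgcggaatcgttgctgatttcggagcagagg
Kif15: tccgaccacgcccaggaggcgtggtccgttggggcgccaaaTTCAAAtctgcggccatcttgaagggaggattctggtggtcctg
Kif18b: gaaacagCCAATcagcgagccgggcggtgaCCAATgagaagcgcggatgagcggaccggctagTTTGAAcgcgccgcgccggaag
Kif20b: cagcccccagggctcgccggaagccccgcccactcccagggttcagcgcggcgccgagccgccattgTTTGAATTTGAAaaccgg
Kif22: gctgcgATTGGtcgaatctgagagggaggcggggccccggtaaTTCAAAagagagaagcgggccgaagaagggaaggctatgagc
Kif23: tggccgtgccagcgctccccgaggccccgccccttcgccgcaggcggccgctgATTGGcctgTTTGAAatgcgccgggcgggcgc
Kif4: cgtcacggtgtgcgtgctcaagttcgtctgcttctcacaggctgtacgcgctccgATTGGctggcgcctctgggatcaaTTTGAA
Kif18a: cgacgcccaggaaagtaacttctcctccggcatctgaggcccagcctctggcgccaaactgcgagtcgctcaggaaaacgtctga
Kif3a: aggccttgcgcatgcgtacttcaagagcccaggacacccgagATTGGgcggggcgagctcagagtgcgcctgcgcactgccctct
Kif13a: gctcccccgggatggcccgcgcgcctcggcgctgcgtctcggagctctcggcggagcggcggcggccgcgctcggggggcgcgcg
In Kif11, Kif15 and Kif22 the motif lay just before the start, its first base at -19, -19 and -17, and in Kif18b, Kif20b, Kif23 and Kif4 just after it, at 4, 8, 3 and 20. Kif20b held 2 copies in a row, the second from 14 to 19. The matches are letters in a sequence, and no binding was measured here.

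The comparison of classes asks how the motors of division and of transport were divided among the macrophages of each day. Mitotic kinesins took a mean of 1.34% ± 0.156 of all kinesin counts at 1 dpi and 6.18% ± 1.22 at 2 dpi. Their share was 23.9% ± 3.24 at 4 dpi and 9.46% ± 5.71 at 7 dpi (SD, n = 3 at each time point). The share does not depend on how the libraries are scaled. It does depend on the class list. Kif2a, a relative of Kif2c kept among the others, had 176, 315 and 330 counts in the 1 dpi libraries. All 11 mitotic kinesins together had 52, 107 and 73 there. Single libraries ran from 1.16% (95% Wilson interval 0.927 to 1.46) at 1 dpi to 27.5% (26.7 to 28.4) at 4 dpi, and the lowest 4 dpi library, at 21.3% (20.4 to 22.2), was above every library of the other time points. The 7 dpi libraries were spread out, at 7.26% (6.89 to 7.65), 5.17% (4.80 to 5.57) and 15.9% (15.3 to 16.6), of which the first 2 lay within the range of the 2 dpi libraries. The intervals cover counting error only, in amplified reads without molecular identifiers.

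Summed over the class, mitotic kinesins stood at 3.95 ± 0.525, 22.7 ± 4.33, 82.3 ± 13.5 and 38.0 ± 19.8 CPM at 1, 2, 4 and 7 dpi (SD, n = 3). Transport kinesins stood at 259 ± 13.2, 313 ± 8.69, 229 ± 12.5 and 331 ± 61.2 CPM at the same time points. The mean transport sum was lowest at 4 dpi, where the mean mitotic sum was highest. Kif5b alone made up 27.5 to 53.6% of the transport counts of a library. Without it, the transport sum was 135 ± 6.66, 152 ± 10.5, 147 ± 22.2 and 212 ± 38.7 CPM, and the lowest mean was at 1 dpi.

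**Figure D1:**
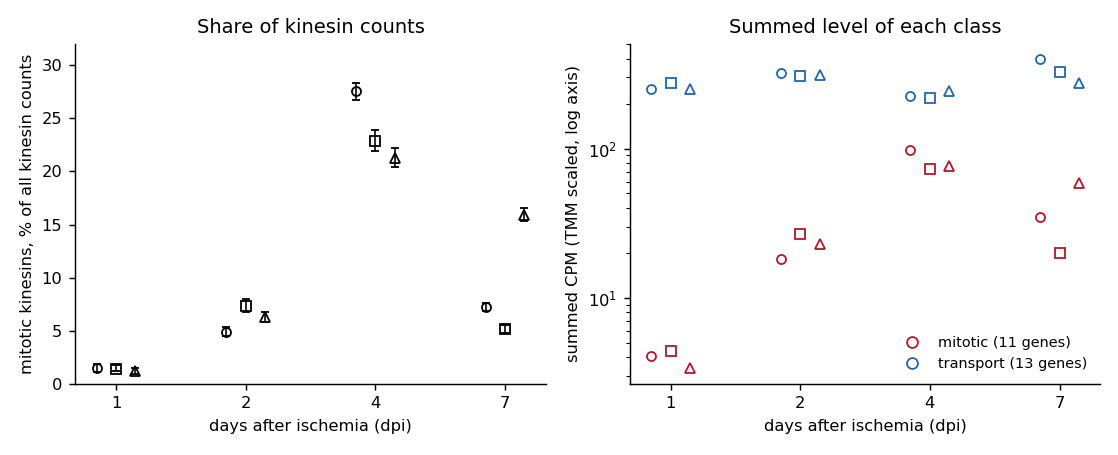
Left, mitotic kinesin counts as a percentage of all kinesin counts in each library by dpi, with 95% Wilson intervals. Right, summed CPM of the 11 mitotic (red) and 13 transport (blue) kinesins on a log axis. Circles, squares and triangles are libraries 1, 2 and 3 of a time point. All 4 dpi shares, at 21.3% or more, lie above every other library.

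All 11 mitotic kinesins changed across the 4 time points (FDR under 0.05, edgeR quasi-likelihood F test over any difference), as did 8 of 12 transport kinesins, against 61.5% of all genes tested. Each of the 11 had its highest mean at 4 dpi, whereas the 12 transport kinesins tested had theirs at 1 dpi (1 gene), 2 dpi (4 genes), 4 dpi (2 genes) or 7 dpi (5 genes).

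From 1 to 2 dpi, 10 of 11 mitotic kinesins rose, all but Kif18a, where 5.09% of all genes were called higher. None was called lower, against 3.97% of all genes. The median log2FC of the 11 was 2.90, and that of all genes was 0.01. In all 11, including Kif18a, each 2 dpi library lay above each 1 dpi library, an order found in 20.9% of all genes. With limma-voom only Kif11 and Kif20b passed (FDR 0.0298 and 0.0314), and the other 8 had FDR of 0.0525 to 0.249. Of all 14310 genes, 479 were called higher with limma-voom, against 729 with edgeR.

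Kif11 and Kif15 slide the spindle poles apart. Kif11 was at 0.157, 0.246 and 0 CPM in the 1 dpi libraries, 3.68, 4.68 and 3.44 at 2 dpi, 12.3, 7.55 and 9.97 at 4 dpi and 3.83, 1.54 and 8.08 at 7 dpi. The first 3 time points did not overlap, while 1 of the 7 dpi libraries fell within the 4 dpi range. Kif11 rose from 1 to 2 dpi with a log2FC of 4.81 (SE 0.70, FDR 0.000286), and from 2 to 4 dpi the log2FC was 1.34 (SE 0.47, FDR 0.056). The latter passed without 1 dpi library 3 (FDR 0.0368) and without 7 dpi library 2 (FDR 0.0148) or 3 (FDR 0.026). From 4 to 7 dpi the log2FC was -1.15 (FDR 0.0798), or -1.88 (FDR 0.00803) without 7 dpi library 3.

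Kif15 was at 0.393, 0.0821 and 0.277 CPM at 1 dpi, 0.977, 1.69 and 1.79 at 2 dpi, 8.71, 5.55 and 6.37 at 4 dpi and 4.10, 2.22 and 5.09 at 7 dpi. No 2 time points overlapped. It rose at both early steps, with log2FC of 2.67 (SE 0.53, FDR 0.00315) and 2.21 (SE 0.41, FDR 0.0015). From 4 to 7 dpi the log2FC was -0.85 (SE 0.39, FDR 0.112).

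Kif4 and Kif22 are chromokinesins, which bind chromosome arms. Kif22 was at 0.786, 0.328 and 0.138 CPM at 1 dpi, 2.55, 3.48 and 2.51 at 2 dpi, 13.6, 12.2 and 12.1 at 4 dpi and 4.78, 1.88 and 8.37 at 7 dpi. The 4 dpi libraries were tightly grouped and above all others. Kif22 rose from 1 to 2 dpi (log2FC 2.90, SE 0.56, FDR 0.00248) and from 2 to 4 dpi (2.15, SE 0.44, FDR 0.00282), and fell from 4 to 7 dpi (-1.33, SE 0.42, FDR 0.0298). The fall was no longer called without 4 dpi library 1 (FDR 0.0723) or 3 (FDR 0.0575) or 7 dpi library 1 (FDR 0.0794) or 2 (FDR 0.0917).

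Kif4, Kif14 and Kif18b had 0 counts in all 1 dpi libraries and 79, 40 and 79 counts over the 2 dpi libraries. With 1 dpi held at 3 counts over the time point, their pooled level was 20.7-, 10.5- and 20.7-fold higher at 2 dpi (FDR of the fit 0.00568, 0.00578 and 0.00395). These folds leave out the spread between libraries. The median log2FC of the class stayed at 2.90 with these folds, on the log2 scale, in place of the fitted values. It could not have moved, because both the folds (3.39 to 4.37 on the log2 scale) and the fitted values lay above it. The 2 dpi libraries held 0.901 to 1.18 CPM of Kif4, 0.300 to 0.717 of Kif14, a motor of the closing cleavage furrow, and 0.215 to 1.99 of Kif18b, which shortens astral microtubules. An exon of Kif4 overlaps Pdzd11 on the other strand in the GRCm38 annotation. Pdzd11 had 753 counts at 1 dpi, where Kif4 had 0. From 2 to 4 dpi Kif4 and Kif14 had log2FC of 1.79 and 1.89 (FDR 0.0979 and 0.0656), and both passed without 7 dpi library 2 (FDR 0.00684 and 0.027).

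Kif18a, which damps the movement of chromosomes at the spindle equator, was the mitotic kinesin not called. It was at 0, 0.410 and 0.554 CPM at 1 dpi and 0.751, 0.996 and 0.717 at 2 dpi, without overlap (log2FC 1.23, SE 0.65, FDR 0.235). At 4 dpi it was at 3.15, 2.13 and 2.72 CPM and at 7 dpi at 0.972, 0.801 and 0.904. All 7 dpi libraries were below those of 4 dpi, and the log2FC was -1.58 (SE 0.58, FDR 0.0554). Without 1 dpi library 1 that difference passed (FDR 0.0178), as did the step from 2 to 4 dpi, whose log2FC was 1.70 (SE 0.59, FDR 0.0528, or 0.0116 without it). The latter also passed without 1 dpi library 3 (FDR 0.0455) or 7 dpi library 2 (FDR 0.0414). An exon of Kif18a overlaps Mettl15 on the other strand, which had 42, 132, 115 and 140 counts at the 4 time points.

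Kif2c takes microtubules apart at centromeres. It was at 0.629, 0.246 and 0.185 CPM at 1 dpi, 2.40, 1.99 and 1.15 at 2 dpi, 12.2, 6.75 and 7.81 at 4 dpi and 1.62, 1.11 and 4.35 at 7 dpi. The 7 dpi libraries lay below all 4 dpi libraries and partly within the 2 dpi range. Its log2FC was 2.50 (SE 0.60, FDR 0.0111) from 1 to 2 dpi, 2.27 (SE 0.49, FDR 0.00385) from 2 to 4 dpi and -1.91 (SE 0.47, FDR 0.00936) from 4 to 7 dpi. Leaving out 1 dpi library 3 ended the first call (FDR 0.0549), while the fall was called with each library left out in turn.

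Kif20a, Kif20b and Kif23 work at the midzone and in the final cut between daughter cells. Kif23, which pairs with Racgap1 to form centralspindlin, was the most abundant mitotic kinesin per length at 1 dpi, at 0.222 CPM per kb of exon. It was at 1.57, 1.93 and 1.75 CPM at 1 dpi, 1.95, 3.68 and 5.59 at 2 dpi, 16.8, 18.4 and 11.7 at 4 dpi and 7.07, 7.39 and 9.92 at 7 dpi. The first step was small, with 1 library of 2 dpi next to the 1 dpi range (log2FC 1.08, SE 0.34, FDR 0.0449), and the second was larger (2.06, SE 0.32, FDR 0.000345). The call at the first step was lost without any 1 of 1 dpi libraries 1, 2 and 3 (FDR 0.12, 0.0841 and 0.112), 2 dpi libraries 2 and 3 (FDR 0.0997 and 0.276), 4 dpi library 3 (FDR 0.05) or 7 dpi library 1 (FDR 0.0519). The log2FC without 2 dpi library 3 was 0.67.

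Kif20a, which carries the Aurora B complex to the midzone, was at 0.393, 0.328 and 0.369 CPM at 1 dpi, 1.13, 2.39 and 3.33 at 2 dpi, 12.3, 9.90 and 11.4 at 4 dpi and 2.13, 0.924 and 7.43 at 7 dpi. The 1 dpi libraries were close together, and those of 7 dpi were widely spread, all below 4 dpi. Its log2FC was 2.65 (SE 0.67, FDR 0.0152), 2.29 (SE 0.54, FDR 0.00751) and -1.68 (SE 0.52, FDR 0.0281) at the 3 steps. The first call was lost without 1 dpi library 2 (FDR 0.056) or 3 (FDR 0.0518) or 2 dpi library 3 (FDR 0.0697). The last was lost without 4 dpi library 1 (FDR 0.0669) or 3 (FDR 0.0572) or 7 dpi library 1 (FDR 0.103) or 2 (FDR 0.0862). An exon of Kif20a overlaps Cdc23 on the other strand, which had 830, 1327, 1319 and 930 counts at the 4 time points.

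Kif20b, which acts in the final cut, was at 0.157, 0.821 and 0.0923 CPM at 1 dpi, 2.25, 4.18 and 2.44 at 2 dpi, 6.65, 4.97 and 5.97 at 4 dpi and 5.40, 3.14 and 7.97 at 7 dpi. The 7 dpi libraries spanned the whole 4 dpi range. It rose from 1 to 2 dpi with a log2FC of 2.91 (SE 0.57, FDR 0.00277), and from 4 to 7 dpi the log2FC was -0.09 (95% interval -1.04 to 0.86, FDR 0.90). Whether it differed from Kif20a at that step was not tested.

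**Figure D2:**
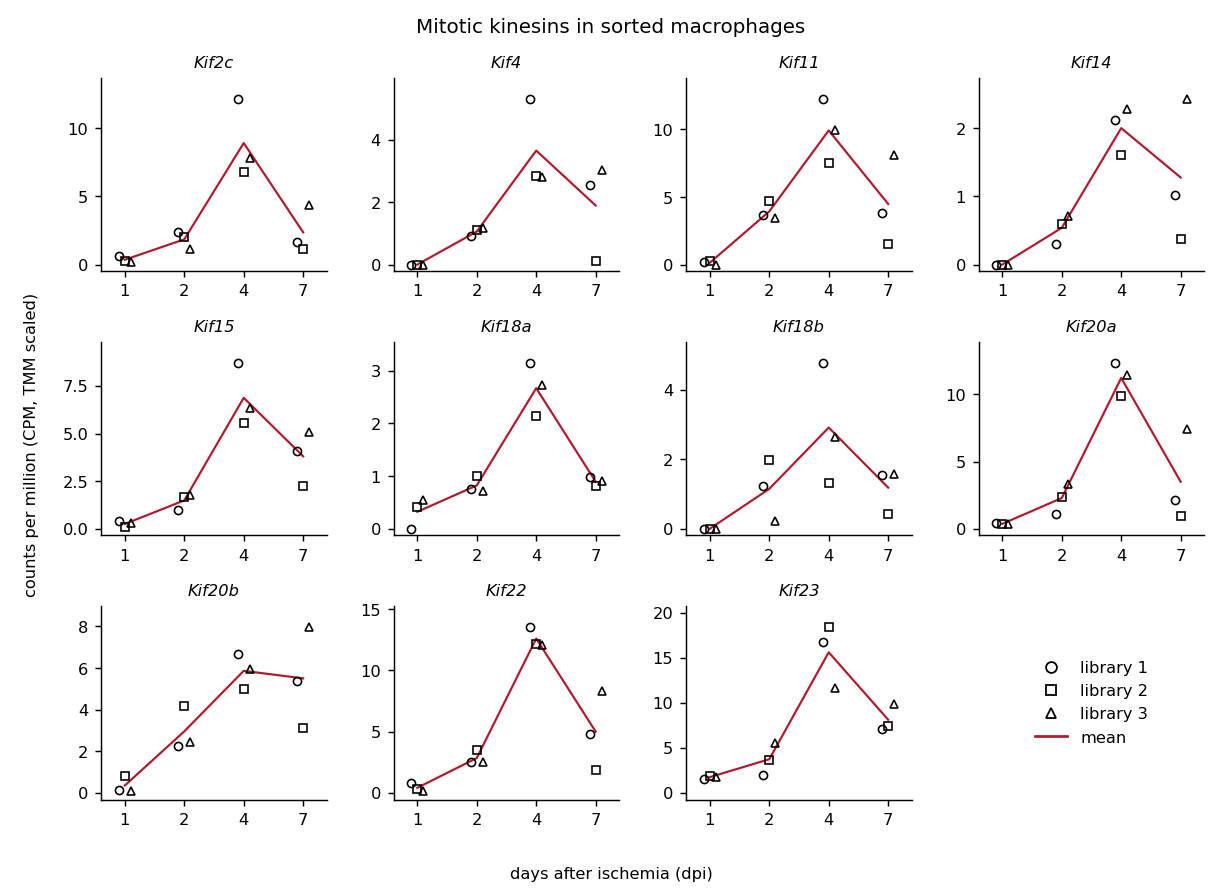
CPM (y axis, TMM scaled, from 0) of the 11 mitotic kinesins by dpi (x axis, equally spaced categories). Symbols are the 3 libraries of a time point and the red line joins their means. Each panel has its highest mean at 4 dpi, and triangles (library 3) are the highest 7 dpi value in 10 of 11 panels.

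From 2 to 4 dpi, 5 of 11 mitotic kinesins rose (Kif2c, Kif15, Kif20a, Kif22 and Kif23), against 8.02% of all genes, and none was called lower, against 3.88%. The class median log2FC was 1.89, and that of all genes 0.04. In 10 of 11 each 4 dpi library lay above each 2 dpi library, an order found in 22.3% of all genes, and the exception was Kif18b. The count was 9 without 7 dpi library 2, 8 with DESeq2 and 10 when only the 6 libraries compared were fitted. All genes called higher in these fits were 1234 of 14605, 1400 of 14310 and 1226 of 12333.

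From 4 to 7 dpi, 3 of 11 mitotic kinesins fell (Kif2c, Kif20a and Kif22), against 5.2% of all genes. No mitotic kinesin was called higher, against 7.44%. The class median log2FC was -1.15, with all genes at -0.03. In 6 of 11 each 7 dpi library lay below each 4 dpi library, an order found in 20.7% of all genes. Kif23 had a log2FC of -0.94 (SE 0.30, FDR 0.0321), short of the fold threshold, and passed without 4 dpi library 3 (-1.13, FDR 0.0286) or 7 dpi library 3 (-1.11, FDR 0.0248). The count was 1 without 4 dpi library 1 or 7 dpi library 1 or 2, and 5 without 7 dpi library 3. All genes called lower in these fits were 504 of 15248, 591 of 14891, 442 of 14605 and 1290 of 14873.

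The 7 dpi libraries kept 1 order across the class: library 3 was the highest in 10 of 11 mitotic kinesins and library 2 the lowest in 10 of 11. Library 2 also had the largest share of mitochondrial counts outside the gene without a symbol, 18.9%, against 4.77 to 12.5% in the other 11 libraries. At 4 dpi, library 1 was the highest in 9 of 11. The part of these library differences in the class values was not tested.

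The 4 to 7 dpi falls also depended on scaling. With library totals in place of TMM, an alternative chosen after seeing the data, the median log2FC of all genes moved to 0.70 and no mitotic kinesin was called lower. Of all 14310 genes, 96 were called lower, against 744 with TMM. Kif14 and Kif20b then had log2FC of 0.12 and 0.65, and the other 9 stayed below 0, with a class median of -0.40. With those totals taken without the gene of largest share, the mitotic sum was 146 CPM at 4 dpi and 76.0 at 7 dpi.

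From 1 to 7 dpi, 10 of 11 mitotic kinesins rose, with Kif18a again not called (log2FC 1.35, FDR 0.0885, or 1.94 with FDR 0.0469 without 1 dpi library 3), where 19.7% of all genes were called higher and 14.0% lower. The class median was 3.81 against 0.16 for all genes. Even the lowest 7 dpi library, at 19.9 summed CPM, was above the highest 1 dpi library, at 4.39.

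Among spindle and midzone partners, a list of 22 genes that includes Kifc1 and Cenpe, 16 rose and none fell from 1 to 2 dpi, 14 rose and none fell from 2 to 4 dpi, and 11 fell and none rose from 4 to 7 dpi. Beside these stand the shares of all genes called at the 3 steps, 5.09, 8.02 and 7.44% higher and 3.97, 3.88 and 5.2% lower. Racgap1, the partner of Kif23, was called at each step, with log2FC of 3.61 (SE 0.38, FDR 2.9e-05), 1.72 (SE 0.31, FDR 0.00117) and -1.73 (SE 0.31, FDR 0.00167). Anln and Cep55, of the furrow and the final cut, had log2FC of 4.51 and 5.21 at the first step, with FDR of 0.000217 and 0.000275. Birc5, of the Aurora B complex, and Hmmr, a spindle protein, rose by log2FC of 3.23 and 2.98 at the second, with FDR of 0.000382 and 0.000726. Aurka and Aurkb, the Aurora kinases, fell by 1.98 and 1.81 on the log2 scale at the third, with FDR of 0.00289 and 0.00508.

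The minus-end spindle kinesin Kifc1 was at 0.157, 0.164 and 0 CPM at 1 dpi, 2.33, 1.79 and 1.65 at 2 dpi, 7.99, 7.19 and 4.57 at 4 dpi and 1.19, 0.739 and 4.24 at 7 dpi, and was called at every step (log2FC 4.17, 1.77 and -1.68, FDR 0.0023, 0.0323 and 0.0331). Cenpe, the kinesin of the kinetochore, rose at the first step (3.96, SE 0.59, FDR 0.000389) and then was at 9.80, 3.20 and 5.00 CPM at 4 dpi and 9.55, 3.88 and 13 at 7 dpi. The ranges of its last 2 time points overlapped in part (log2FC 0.55, SE 0.43, FDR 0.365).

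Of 15 proliferation genes, 14 rose from 1 to 2 dpi, 6 rose from 2 to 4 dpi and 12 fell from 4 to 7 dpi. The shares of all genes called in these directions were 5.09, 8.02 and 5.2%. Among those active in DNA synthesis, some had their highest mean at 2 dpi (Mcm2, Mcm3, Mcm5, Mcm6 and Pcna) and others at 4 dpi, like the mitotic kinesins. Of the latter, Rrm2 went from a mean of 12.0 CPM at 2 dpi to 22.1 at 4 dpi and Tyms from 7.14 to 11.8. The summed level of Mcm2, Mcm3, Mcm5 and Mcm6 was 35.6 ± 6.30, 252 ± 24.5, 169 ± 104 and 74.0 ± 41.9 CPM at 1, 2, 4 and 7 dpi (SD, n = 3). The 4 dpi libraries ran from 88.6 to 286 CPM and took in the whole 2 dpi range. Mcm5 had a log2FC of 2.89 (SE 0.45, FDR 0.000512) from 1 to 2 dpi and -0.43 (SE 0.41, FDR 0.495) from 2 to 4 dpi. Pcna, the replication clamp, had -0.58 (SE 0.25, FDR 0.106) at the latter step. Top2a, which untangles chromosomes before they part, rose at both steps (3.48 and 1.38, FDR 6.6e-05 and 0.0113) and fell at the last (-1.04, FDR 0.0374). Mki67, a marker of cycling cells, had a log2FC of 0.98 (SE 0.26, FDR 0.0144) from 4 to 7 dpi, opposite in sign to that of all 11 mitotic kinesins with TMM. Whether these genes differed from the kinesins was not tested.

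The summed level of 10 neutrophil markers was lower at 2 dpi than at 1 dpi, at 131 to 204 CPM at 1 dpi and 55.2 to 64.6 at 2 dpi, with 1 of the 10 at 0 at 1 dpi and 3 at 2 dpi. That of 8 fibroblast and stromal markers overlapped, at 17.9 to 55.9 and 31.1 to 49.7 CPM. From 2 to 4 dpi the fibroblast and stromal sum went to 168 to 316 CPM, that of 7 dendritic cell markers from 10.5 to 18.3 CPM to 39.9 to 64.8 and that of 10 muscle and satellite cell markers from 6.02 to 9.05 CPM to 12.1 to 18.8, each without overlap. The part of such cells in the kinesin rises at both steps was not tested.

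Of the 12 transport kinesins tested, 1 rose from 1 to 2 dpi (Kif3a), from 2 to 4 dpi none was called, and from 4 to 7 dpi 3 rose (Kif1b, Kif13a and Kif16b). None was called lower at these steps, where 3.97, 3.88 and 5.2% of all genes were. The class medians were 0.12, -0.19 and 0.30 on the log2FC scale at the 3 steps. From 1 to 7 dpi, 2 rose (Kif3c and Kif16b), with a median of 0.74. Beside these counts stand the 5.09, 8.02, 7.44 and 19.7% of all genes called higher at the same comparisons.

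Per length of exon, Kif5b was the highest kinesin at each time point, at 15.5, 20.3, 10.3 and 14.9 CPM per kb. At 1 dpi Kif3b, Kif1b, Kif3a and Kif13b followed, at 3.14, 2.74, 2.51 and 2.31 CPM per kb, and the first mitotic kinesin, Kif23, was 12th. At 4 dpi Kif20a and Kif22 were 5th and 6th, at 2.59 and 2.57 CPM per kb, between Kif3b at 2.97 and Kif1b at 2.15. The SD over the 3 libraries was 0.284 for Kif20a and 0.419 for Kif3b, and the ranges of these neighbours overlapped.

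Kif5b is the widely expressed heavy chain of kinesin-1, which moves mitochondria and lysosomes. It was at 123, 133 and 116 CPM at 1 dpi, 160, 164 and 161 at 2 dpi, 105, 60.0 and 82.0 at 4 dpi and 151, 102 and 104 at 7 dpi. Every 2 dpi library was above every other library of the series, and every 4 dpi library below those of 1 and 2 dpi. From 2 to 4 dpi the log2FC was -0.98 (SE 0.21, FDR 0.0039), past the FDR but just short of the fold threshold. Without 4 dpi library 1 it was -1.19 (FDR 0.000809), which passed both.

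The neuronal heavy chains Kif5a and Kif5c stayed low, at no more than 0.710 and 2.40 CPM in any library, and neither was called. Without 1 dpi library 1, Kif5c passed from 1 to 7 dpi (log2FC 4.02, FDR 0.00648, against 1.86, FDR 0.113). Of the light chains that link kinesin-1 to cargo, Klc4 was at 10.9, 12.9 and 11.7 CPM at 2 dpi and 19.8, 46.6 and 33.8 at 4 dpi and rose (log2FC 1.49, SE 0.32, FDR 0.00418). Klc1, named after its values were seen, went the other way at that step, like Kif5b, with a log2FC of -0.62 (SE 0.19, FDR 0.0303) that was short of the fold threshold.

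Heterotrimeric kinesin-2 is made of Kif3a, Kif3b and the adaptor Kifap3. Kif3a was at 6.13, 11.2 and 9.64 CPM at 1 dpi and 20.3, 15.7 and 21.4 at 2 dpi, without overlap (log2FC 1.08, SE 0.33, FDR 0.04). At 4 dpi it was at 14.6, 19.6 and 17.3 CPM, and at 7 dpi at 25.6, 7.95 and 18.8, so that 7 dpi ran from below the 1 dpi median to above all others. The call was lost without 1 dpi library 1 (FDR 0.152) or 3 (FDR 0.087), 2 dpi library 1 (FDR 0.108), 2 (FDR 0.0559) or 3 (FDR 0.129), or 4 dpi library 3 (FDR 0.0534). From 1 to 7 dpi the log2FC was 0.94 (FDR 0.0247), and it passed the fold threshold without 1 dpi library 2 or 3, 2 dpi library 3 or 7 dpi library 2 (1.02 to 1.32).

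Kifap3 was at 4.79, 5.42 and 5.54 CPM at 1 dpi and 16.8, 20.01 and 15.3 at 2 dpi, without overlap, and rose with a log2FC of 1.72 (SE 0.20, FDR 6.7e-05). Kif3b was at 17.6, 18.6 and 16.9 CPM at 1 dpi and 21.9, 18.2 and 18.2 at 2 dpi, with a log2FC of 0.13 (95% interval -0.27 to 0.54, FDR 0.708). The 3 subunits of 1 complex thus had unlike values at this step, though the difference between them was not tested. Per length, Kif3b was at 3.14 and 3.45 CPM per kb at 1 and 2 dpi, Kif3a at 2.51 and 5.34, and Kifap3 at 1.31 and 4.33.

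Kif3c, another partner of Kif3a, was at 0, 0.657 and 1.02 CPM at 1 dpi, 2.37, 1.84 and 1.68 at 2 dpi, 2.33, 4.93 and 2.50 at 4 dpi, and 6.64, 5.58 and 3.42 at 7 dpi. No single step was called, while the whole course was, with a log2FC of 3.10 from 1 to 7 dpi (SE 0.59, FDR 0.000429). Without 1 dpi library 3 the first step passed (log2FC 2.34, FDR 0.0447). All 7 dpi libraries were above all 1 dpi libraries.

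The 3 transport kinesins that rose from 4 to 7 dpi belong to kinesin-3, whose members carry endosomes, lysosomes and mitochondria. Kif13a, a motor of recycling endosomes, was at 5.08, 5.50 and 5.44 CPM at 4 dpi and 24.2, 12.4 and 9.27 at 7 dpi (log2FC 1.52, SE 0.29, FDR 0.00237). Kif16b, a motor of early endosomes, was at 7.59, 7.01 and 8.52 CPM and then 19.0, 17.0 and 14.7 (1.13, SE 0.27, FDR 0.00837). Kif1b was at 29.7, 43.3 and 40.4 CPM and then 92.4, 93.3 and 49.7 (1.05, SE 0.22, FDR 0.00413). In all 3 the time points did not overlap, an order with 7 dpi on top that 19.3% of all genes had.

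At 7 dpi the Kif13a value of library 1 stood above the other two, and that of Kif1b in library 3 below them. Without library 1 of 7 dpi the log2FC of Kif1b was 0.92, without library 2 it was 0.93, and without 4 dpi library 1 it was 0.89, each short of the fold threshold with FDR of 0.0176, 0.0163 and 0.0215. Kif13a and Kif16b were called with each library left out in turn. Kif13a had a log2FC of 0.78 from 1 to 7 dpi (FDR 0.0353), or 1.05 without 7 dpi library 3 (FDR 0.00485). Against 1 dpi, Kif16b was also higher at 7 dpi, from 3.61, 9.89 and 5.35 CPM (log2FC 1.40, SE 0.28, FDR 0.000609). Its difference from 1 to 2 dpi was not called (FDR 0.054), though it was without 1 dpi library 2 (log2FC 1.36, FDR 0.0036).

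The other transport members of kinesin-3 were not called from 4 to 7 dpi. Whether they differed from Kif1b, Kif13a and Kif16b was not tested. Kif13b was at 33.0, 52.5 and 56.5 CPM at 4 dpi and 40.6, 58.5 and 47.0 at 7 dpi, with partly overlapping ranges (log2FC 0.04, 95% interval -0.39 to 0.48, FDR 0.898). Kif1c was at 9.77, 8.43 and 8.03 CPM and then 11.6, 9.77 and 6.33 (log2FC 0.08, 95% interval -0.40 to 0.55, FDR 0.832). Kif1a, the neuronal form, was at 0 to 1.38 CPM in all libraries and was not called.

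These late rises moved with other values. The 3 genes are in the longest of 4 equal bins of genes by exonic length (6435 bases or more), whose median log2FC from 4 to 7 dpi was 0.23 and of which 10.8% were called higher, against 5.46 to 7.76% in the other bins. That bin holds 10 of 13 transport and 6 of 11 mitotic kinesins. Over the same step the sum of 8 fibroblast and stromal markers went from 168 to 316 CPM at 4 dpi to 483 to 932 at 7 dpi, that of 10 muscle and satellite cell markers from 12.1 to 18.8 CPM to 44.2 to 107, and that of 8 endothelial markers from 26.9 to 35.8 CPM to 43.9 to 93.5. None of these markers was at 0 at 7 dpi. Sums of 7 dendritic cell, 6 B cell and 8 neuron and Schwann cell markers went from 39.9 to 64.8, 5.78 to 8.30 and 103 to 167 CPM at 4 dpi to 58.3 to 109, 12.2 to 17.4 and 135 to 163 at 7 dpi. T and NK cell markers stayed at 1.51 CPM or less and erythroid markers at 7.20 or less in every library. The part of length and of such cells in the kinesin rises was not tested.

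**Figure D3:**
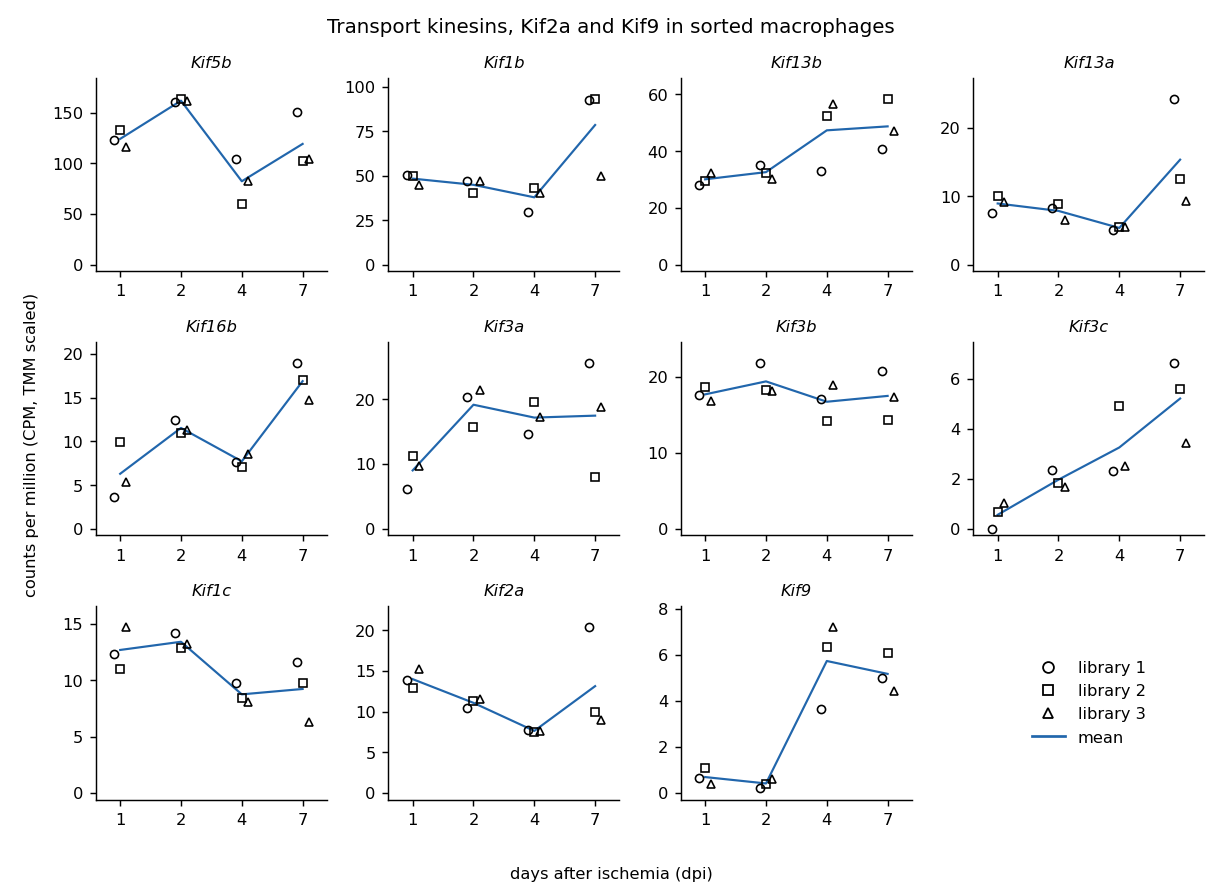
CPM (y axis, TMM scaled, from 0) of 9 transport kinesins, Kif2a and Kif9 by dpi (x axis, equally spaced categories). Symbols are the 3 libraries and the blue line joins their means. Kif13a and Kif16b rise at 7 dpi, Kif3b stays between 14.2 and 21.9 CPM, and Kif9 is at 1.07 CPM or less until 2 dpi.

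Of 26 transport partners, 24 were tested. Kifap3 rose from 1 to 2 dpi, from 2 to 4 dpi Klc4 rose, from 4 to 7 dpi 2 rose, and none was called lower at these steps. The last 2 were Spag9 (log2FC 1.14, SE 0.21, FDR 0.00171) and Trak1 (1.12, SE 0.20, FDR 0.00144), scaffolds that tie kinesin-1 to signalling proteins and to mitochondria. Of 28 genes of dynein and dynactin, the motor that runs the other way, 25 were tested. Dynll2 (1.53, FDR 0.000776) and Nde1 (1.02, FDR 0.00225) rose and Ndel1 (-1.06, FDR 0.00253) fell from 1 to 2 dpi. None was called from 2 to 4 dpi. From 4 to 7 dpi Dynll2 rose (1.16, FDR 0.00306) while Actr1b (-1.01, FDR 0.0015) and Dynlt1b (-1.23, FDR 0.0141) fell. Of all genes tested, 5.09, 8.02 and 7.44% were called higher from 1 to 2, 2 to 4 and 4 to 7 dpi. The shares called lower at the same steps were 3.97, 3.88 and 5.2%. Whether either list differed from all genes was not tested.

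**Figure D4:**
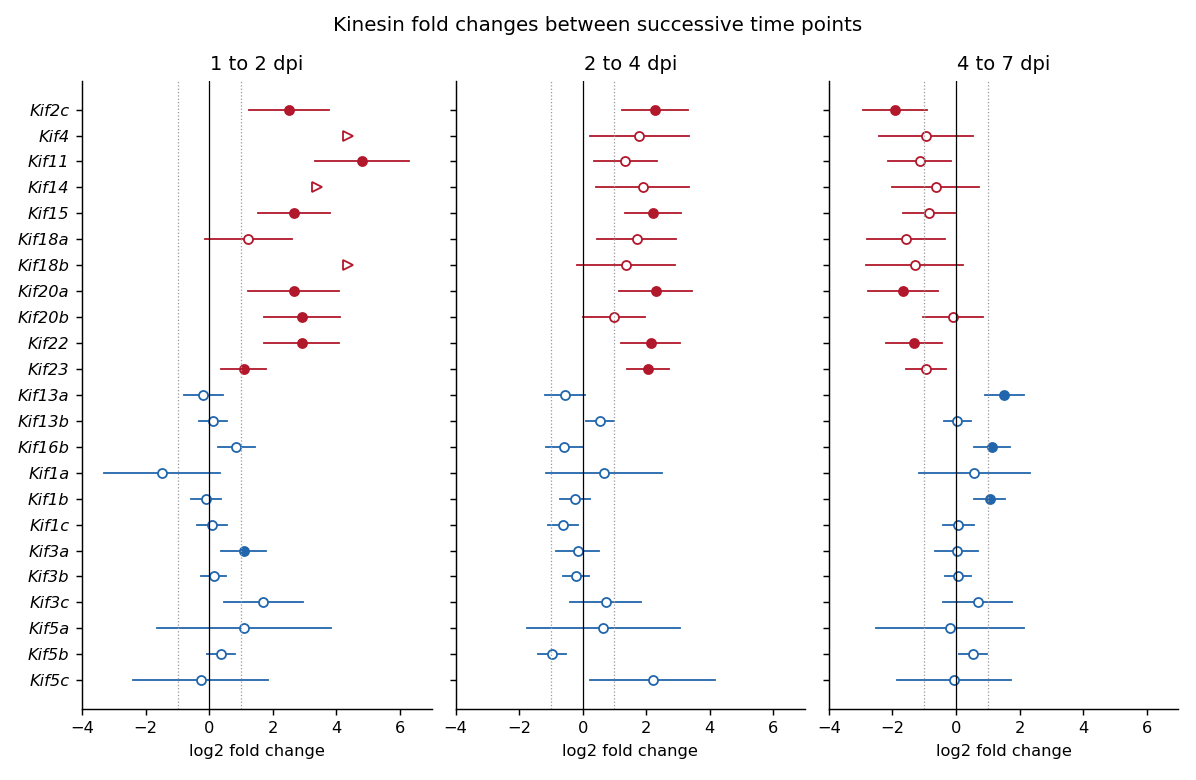
Log2FC (x axis) with 95% intervals of the 11 mitotic (red) and 12 tested transport kinesins (blue) at the 3 steps. Filled points were called, open points were not, and dotted lines mark an absolute log2FC of 1. Open triangles are pooled folds over a floor of 3 counts for Kif4, Kif14 and Kif18b, which had 0 counts at 1 dpi. Red points lie to the right at the first 2 steps and to the left at the third.

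Of the other 7 kinesins tested, Kif9 rose from 2 to 4 dpi, Kif26a rose from 4 to 7 dpi and Kif19a fell from 1 to 2 dpi. The shares of all genes called in the same directions at these steps were 8.02, 7.44 and 3.97%. Kif9 is known as a motor of motile cilia and, in human macrophages, of podosomes. It was at 0.629, 1.07 and 0.369 CPM at 1 dpi, 0.225, 0.398 and 0.609 at 2 dpi, 3.63, 6.35 and 7.20 at 4 dpi and 4.99, 6.07 and 4.44 at 7 dpi. The libraries of the first 2 time points were all below those of the last 2, and 7 dpi lay within the 4 dpi range. Its log2FC was 3.77 from 2 to 4 dpi (SE 0.46, FDR 4.77e-05) and 2.88 from 1 to 7 dpi (SE 0.44, FDR 6.63e-05). From 4 to 7 dpi the log2FC was -0.14, or 0.59 with library totals (with TMM, 95% interval -0.95 to 0.66, FDR 0.807). The rise from 2 to 4 dpi was called under each of the 23 alternatives tried.

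Kif19a, a microtubule depolymerase of cilia, fell from 2.28, 2.71 and 4.25 CPM at 1 dpi to 0.638, 1.49 and 1.22 at 2 dpi (log2FC -1.47, SE 0.45, FDR 0.0417). The call was lost without 1 dpi library 2 (FDR 0.0699) or 3 (FDR 0.18), 2 dpi library 1 (FDR 0.17), 2 (FDR 0.0622) or 3 (FDR 0.109), or 4 dpi library 3 (FDR 0.0577). Kif2a, a depolymerase relative of Kif2c, was at 13.8, 12.9 and 15.2 CPM at 1 dpi, 10.4, 11.2 and 11.6 at 2 dpi, 7.74, 7.55 and 7.59 at 4 dpi and 20.4, 9.98 and 9.02 at 7 dpi. The 4 dpi libraries were the lowest, and no step was called (4 to 7 dpi: log2FC 0.78, SE 0.26, FDR 0.0359, short of the fold threshold). An exon of Kif2a overlaps Dimt1 on the other strand, which had 410, 418, 208 and 238 counts at the 4 time points.

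Kif26a, which lacks the motor activity of its relatives, was at 0.181, 0 and 0.0878 CPM at 4 dpi and 1.13, 1.05 and 1.24 at 7 dpi (log2FC 3.51, SE 1.26, FDR 0.0499). The call sat at the threshold and was lost without any 1 of 9 libraries: 1 dpi 1, 2 dpi 2 or 3, and all those of 4 and 7 dpi (FDR 0.0515 to 0.125). Kif26b had 0 counts at 1 and 2 dpi and 30 over the 4 dpi libraries. Pooled, that was 9.52-fold higher than a floor of 3 counts at 2 dpi, and Kif26b was not called (FDR 0.0737). From 1 to 7 dpi it passed only without 7 dpi library 2 (FDR 0.0485, against 0.0812). Kif21b, which tunes microtubule growth in immune cells, was at 9.12, 10.2 and 12.0 CPM at 1 dpi and 21.7, 18.3 and 18.5 at 7 dpi, without overlap (log2FC 0.90, SE 0.20, FDR 0.00177), short of the fold threshold, which it passed without 1 dpi library 3 (1.08, FDR 0.00207). Kif24, of centrioles, was at 1.1 to 3.27 CPM and was not called.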

How the data were processed

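RNA-seq was measured in 12 libraries, 3 per time point. Libraries were made by a Smart-seq2/3 protocol and sequenced as read pairs, without a stated strand setting. Per the submitters' processing notes and methods, the authors used Trim Galore 0.6.6 for trimming, HISAT2 2.2.1 with GRCm39 for alignment and Subread 2.0.1 for the raw counts per gene that were deposited. All 12 columns were used, and Ensembl IDs were paired with symbols and exonic lengths from a GRCm38 annotation.

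Counts were fitted with edgeR 4.0.16 in R 4.3.3 (filterByExpr, TMM, quasi-likelihood F test, 1 coefficient per time point, all libraries), with Benjamini-Hochberg adjustment over 14310 genes. A group at 0 counts was held at 3 counts over the time point. limma 3.58.1 and DESeq2 1.42.0 were alternatives, as were other filters and scalings, a replicate block, halved counts and each library left out. The procedure was tested on simulated data. The members, classes and lists were chosen with earlier results of these data known. Every member is described. Of partner lists, the 3 called genes of smallest p per step are named, besides Kifc1, Cenpe, Mki67, Top2a, Mcm5 and Pcna. Mcm2, Mcm3, Mcm6, Rrm2, Tyms and Klc1 were added after their values were seen. Libraries had 3608 to 17869 kinesin counts. Among small counts, 76.6 to 85.5% per library were even. If mates were counted singly, the counts overstate fragments, and the intervals are too narrow.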

Additional observations from a re-analysis of the deposited data

How the results depend on the processing

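No member call changed sign in any alternative, and 23 of 38 calls were kept in all of them that could be run. From 1 to 2 dpi, mitotic kinesins called higher were 10 as reported, 2 with limma-voom and 7 to 10 with 1 library left out. Transport kinesins called higher were 1, 2 with DESeq2 or with no filter but 1 count, 0 with limma-voom or the replicate block, 3 with library totals (chosen after seeing the data) and 0 to 2 with 1 library left out. From 2 to 4 dpi, 5 mitotic kinesins became 9 with no filter, 8 with DESeq2, limma-voom or counts halved, 10 with only the 6 libraries compared and 5 to 9 with 1 library left out. Transport kinesins called at that step were 0 higher, but 1 with no filter, DESeq2 or the 6 libraries, and 0 lower, but 1 (Kif5b) with the FDR alone, limma-voom, library totals or the replicate block and 0 to 1 with 1 library left out. From 4 to 7 dpi, 3 mitotic kinesins called lower became 5 with limma-voom, 0 with library totals and 1 to 5 with 1 library left out. The 3 transport kinesins called higher became 5 with library totals and 2 to 3 with 1 library left out. From 1 to 7 dpi, 2 transport kinesins became 6 with the FDR alone, 4 with counts halved, 9 with library totals and 2 to 3 with 1 library left out, and mitotic calls ran from 10 to 11. With library totals the median of all genes was 0.57, -0.08, 0.70 and 1.32 at the 4 comparisons, against 0.01, 0.04, -0.03 and 0.16 with TMM. Of 14310 genes, 2482, 936, 3837 and 7785 were called higher with library totals, against 729, 1148, 1064 and 2814 with TMM. Called lower from 4 to 7 dpi were 96, against 744 with TMM and 881 with limma-voom. With limma-voom 479 genes were higher from 1 to 2 dpi and 1042 from 2 to 4 dpi. From 1 to 7 dpi 3572 were higher by the FDR alone, and 3006 of 12710 with counts halved. Over any time point, 11 mitotic and 6 to 8 transport kinesins passed with 1 library left out. The causes of these shifts were not tested.

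The mitotic sum per 1000000 raw counts was 2.72 at 1 dpi and 60.1 at 7 dpi. Leaving out the gene of largest share gave 5.92, 40.4, 146 and 76.0 at the 4 time points. The transport sum was 179, 214 and 514 per 1000000 raw counts at 1, 4 and 7 dpi, and 389, 558, 404 and 655 without that gene. The replicate numbers did not pair the libraries: over 18 pairs with the same number, the correlation of deviations from the time point means was -0.13 to 0.13, and 1 was over 0.1. The block ended 3 of 38 member calls. Depth limits the mitotic kinesins at 1 dpi, where a library held 52 to 107 counts over all 11.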

Other observations

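Kif1bp, a binding partner of kinesins named here after its values were seen, was at 6.29, 5.46 and 4.38 CPM at 1 dpi, 7.02, 7.91 and 7.60 at 2 dpi, 9.44, 8.04 and 9.35 at 4 dpi and 12.6, 12.8 and 17.0 at 7 dpi. No 2 time points overlapped, and each was above the one before. The log2FC from 1 to 7 dpi was 1.40 (SE 0.22, FDR 7.15e-05), while no single step was called (4 to 7 dpi: 0.66, FDR 0.0303). Kifc3, a minus-end kinesin, was at 2.68 to 6.80 CPM without a call, and its log2FC from 1 to 7 dpi was -0.09 (SE 0.32, FDR 0.839). Kifc2 and Kifc5b had 94 and 140 counts in total and were not called. Kif22-ps, Kif4-ps and Kif16bos, the pseudogenes and the antisense gene that carry members' names, had 0 counts in all 12 libraries.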
